A study of Mus musculus with 48 samples.

Results

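The 9 genes described here handle iron or set how far iron-driven lipid peroxidation can go: Tfrc, Slc11a2, Fth1, Ftl1, Ncoa4, Slc40a1, Gpx4, Aifm2 and Acsl4. They were chosen by name, and all 9 were found by Ensembl identifier among the 55487 genes of the count table. RNA-seq was made from kidney slices of male mice that were treated outside the body. C57BL/6J and DBA/2J mice, the inbred founders of the BXD panel, gave the slices, and each of the 16 groups (2 strains, 8 conditions) held 3 libraries. The conditions were an untreated control, tunicamycin (an inhibitor of N-glycosylation that stresses the endoplasmic reticulum) and cyclosporin A (a calcineurin inhibitor that is toxic to the kidney), each at 6 h and at 24 h, then normoxia (an ischemia model by its label) and normoxia-hyperoxia (a reperfusion model by its label), both at 24 h. The labels give no drug dose, no age of the mice and no oxygen level for the control slices, and they set the oxygen conditions in another part of the study than the controls and drugs. A difference between an oxygen condition and the 24 h controls and a difference between those parts of the study therefore cannot be told apart. The library names also start with a number that changes between the 6 h groups, the 24 h control and drug groups, normoxia and normoxia-hyperoxia. What the number stands for is not given, and any effect of it cannot be told apart from time or oxygen. The labels number the biological replicates, and they do not say whether slices with the same number came from the same mouse. P-values measure the spread between these libraries, which may be partly technical.

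Cells take up iron from transferrin through the transferrin receptor (Tfrc), move it out of the endosome through the divalent metal transporter DMT1 (Slc11a2), store it in ferritin, a shell of heavy (Fth1) and light (Ftl1) chains, and export it through ferroportin (Slc40a1). NCOA4 (Ncoa4) is the receptor that carries ferritin to the lysosome, where its iron is released. In the kidney, tubular cells reabsorb filtered iron, and ferroptosis, a form of cell death driven by iron and peroxidised phospholipids, is known from ischemic and toxic tubular injury. GPX4 (Gpx4) reduces phospholipid peroxides with glutathione, FSP1 (Aifm2) regenerates ubiquinol as a separate defence, and ACSL4 (Acsl4) loads polyunsaturated fatty acids into the lipids that peroxidise.

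The transcripts of 5 of the 9 genes carry an iron-responsive element (IRE), a short hairpin read by the iron regulatory proteins (products of Aco1 and Ireb2). An element in a 5′ UTR blocks translation when it is bound, and an element in the 3′ UTR of Tfrc protects the mRNA from decay. The sequences are shown because they set these genes apart in how iron can act on them, and because the counts read mRNA and not translation. They were found in GENCODE M21 transcripts on GRCm38, as windows of 30 bases read 5′ to 3′, and the capitals mark the loop CAGTGN of each element.
Tfrc 3′ UTR, the first element, chr16:32631219-32631248, plus strand: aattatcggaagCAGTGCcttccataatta
Tfrc 3′ UTR, the second element, chr16:32631598-32631627, plus strand: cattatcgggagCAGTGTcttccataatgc
Tfrc 3′ UTR, the third element, chr16:32631663-32631692, plus strand: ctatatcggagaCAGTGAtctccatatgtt
Tfrc 3′ UTR, the fourth element, chr16:32631710-32631739, plus strand: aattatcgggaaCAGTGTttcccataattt
Fth1 5′ UTR, chr19:9982732-9982761, plus strand: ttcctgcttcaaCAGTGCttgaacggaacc
Ftl1 5′ UTR, chr7:45459778-45459807, minus strand: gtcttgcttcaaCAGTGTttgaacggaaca
Slc40a1 5′ UTR, chr1:45925464-45925493, minus strand: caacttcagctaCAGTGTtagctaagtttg
Slc11a2 3′ UTR, chr15:100395152-100395181, minus strand: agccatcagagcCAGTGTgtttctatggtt
The search asked for an unpaired C, a stem of 5 base pairs and the loop, on the transcript strand, and 160 of 21901 coding genes (0.731%) held such a window in a UTR. Tfrc, Fth1, Ftl1 and Slc40a1 are among them. Slc11a2 matched only when 1 extra unpaired base was allowed in the stem, which 439 genes (2%) then met, and its element lies in 1 of 6 annotated coding transcripts. The elements lie in 1 of 3 annotated coding transcripts of Tfrc, 4 of 5 of Fth1, 1 of 2 of Ftl1 and 1 of 4 of Slc40a1. The counts are per gene and do not separate transcripts with an element from those without it, for any of the 5 genes. No match was found in the annotated UTRs of Gpx4, Aifm2, Acsl4 or Ncoa4.

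On GRCm38, the genes lie on 8 chromosomes: Tfrc (ENSMUSG00000022797) at chr16:32608920-32632794, Slc11a2 (ENSMUSG00000023030) at chr15:100387898-100425072, Fth1 (ENSMUSG00000024661) at chr19:9980598-9985098, Ftl1 (ENSMUSG00000050708) at chr7:45457944-45459884 and Ncoa4 (ENSMUSG00000056234) at chr14:32159865-32179855. The others are Slc40a1 (ENSMUSG00000025993) at chr1:45908068-45926523, Gpx4 (ENSMUSG00000075706) at chr10:80047166-80056439, Aifm2 (ENSMUSG00000020085) at chr10:61715263-61739260 and Acsl4 (ENSMUSG00000031278) at chrX:142317993-142390535. On the opposite strand, exons of Aifm2 overlap H2afy2 over 233 bases, those of Slc11a2 overlap Gm5475 over 402 and those of Ftl1 overlap Gm10252 over 355. Exons of Ftl1 also overlap Gm22133 on the same strand over 109 bases, a pair that no strand setting separates. The strand setting of the counting is not given in the sources used here, so reads of the pairs on opposite strands cannot be told apart either. The pseudogene Gpx4-ps2 held 2.9% as many counts as Gpx4, and Ftl1-ps1 0.219% as many as Ftl1.

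Libraries held 5619309 to 25137581 counts. One library, the second replicate of the DBA/2J normoxia-hyperoxia group, was the shallowest. The second lowest total was 12384733. All 9 genes passed the filter on low counts in every comparison, and the lowest count of any of them in a library was 95 (Aifm2). Markers of the proximal tubule were detected in every library, but their summed level differed greatly with the condition, from 28432 to 45100.3 counts scaled to a common library size (CPM) under normoxia to 560.1 to 2272 CPM under normoxia-hyperoxia. In slices, fewer cells of a type and less RNA per cell cannot be told apart.

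Per length of transcript, the ferritin chains were far above the other genes. The median over the 48 libraries was 4181 TPM (a share of transcripts that takes out their length) for Ftl1 and 2571 for Fth1, which ranked 13 and 21 among the 55141 genes with a symbol. Gpx4 followed at 396 TPM. Tfrc (57.9 TPM) and Acsl4 (55.2 TPM) were close to each other, then came Slc11a2 at 29.1, Ncoa4 at 12.7, Aifm2 at 10.9 and Slc40a1 at 10.9 TPM. TPM are shares of each library with no TMM factor. Of 57 changes called within a strain in the comparisons of time and oxygen, 5 had the other direction in mean TPM, and these are named beside the results.

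**Figure D1:**
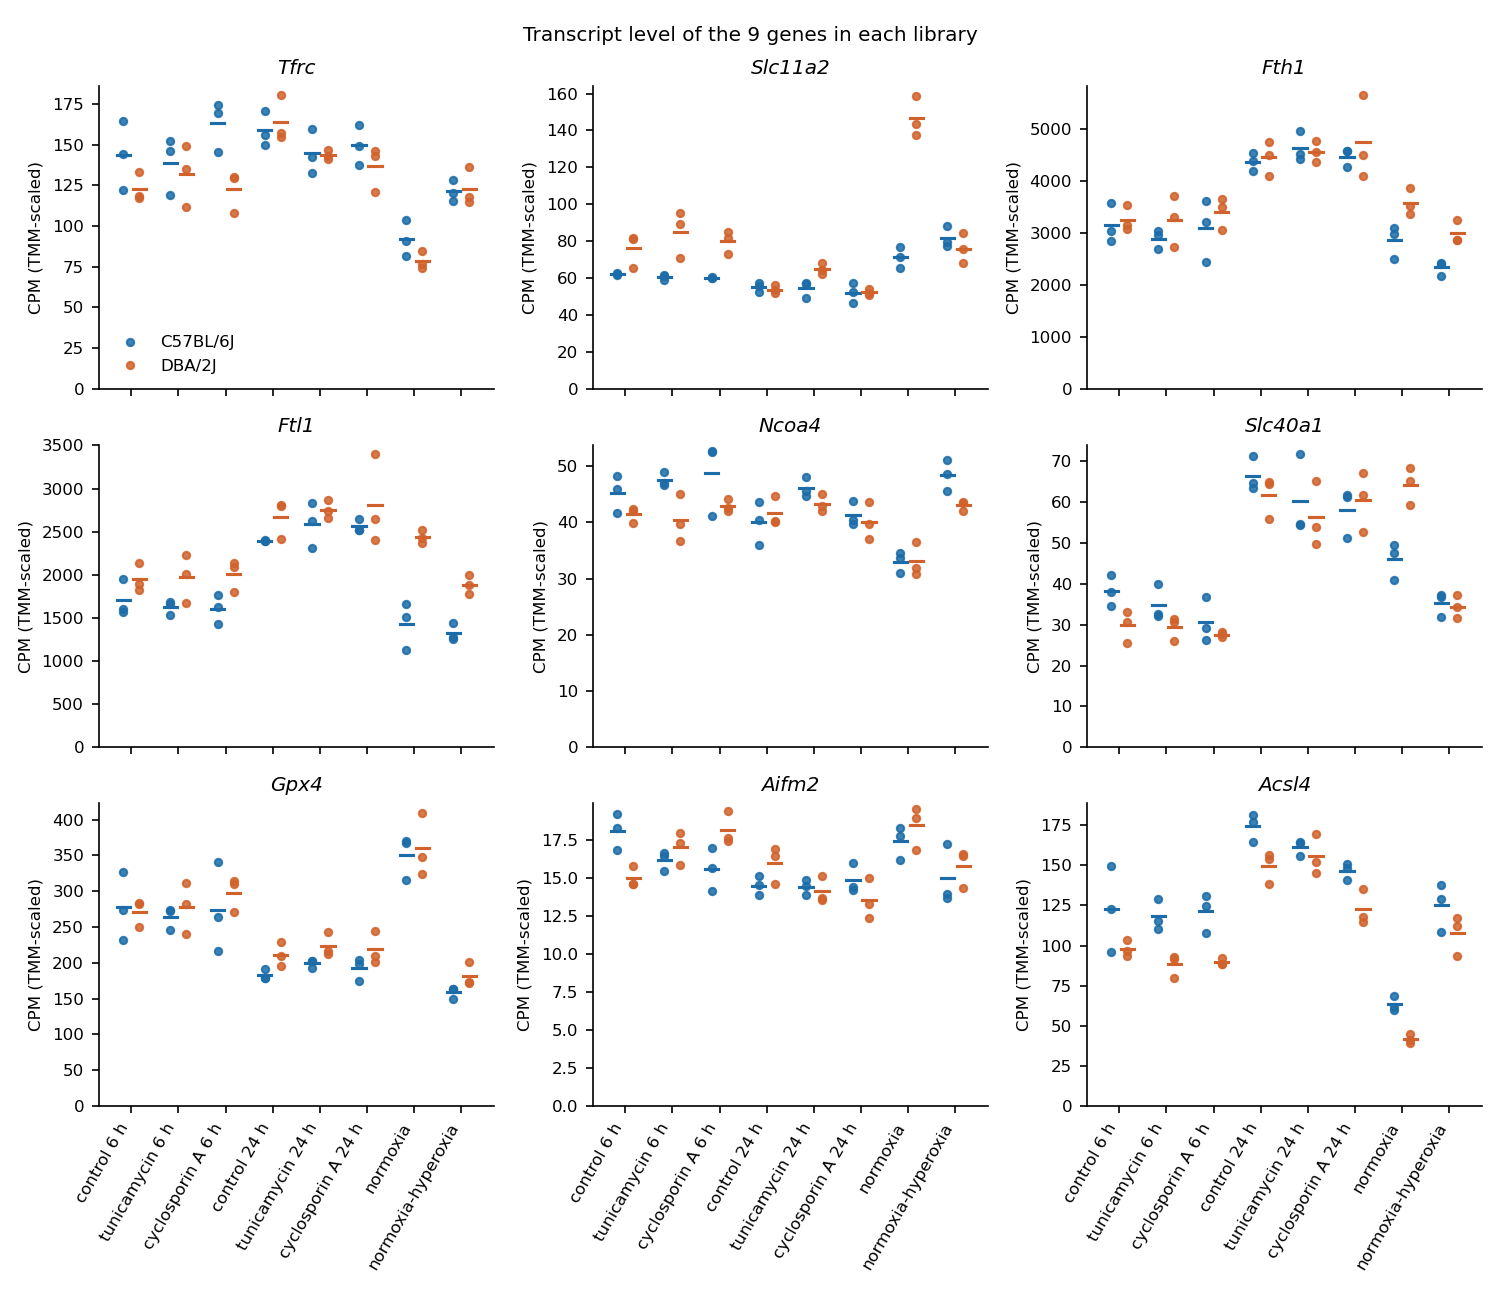
Level of each gene in every library (points; y axis in CPM scaled by the trimmed mean of M-values, from 0) by condition (x axis) and strain (colour), with the mean of the 3 libraries as a bar. Acsl4 was lowest under normoxia in both strains, and Slc11a2 stood highest in the 3 DBA/2J normoxia libraries.

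Across conditions the genes differed in how much they varied. The plot of levels by library shows Acsl4 with the widest span of group means, 4.19-fold, from 41.7 ± 2.79 CPM (SD, n = 3) in DBA/2J normoxia to 174 ± 8.92 CPM for C57BL/6J 24 h controls. CPM here and below are scaled by trimmed-mean-of-M-values (TMM) factors over all 48 libraries. Slc11a2 spanned 2.82-fold, from 52 CPM for C57BL/6J cyclosporin A at 24 h to 147 CPM for DBA/2J normoxia. Slc40a1 (2.41-fold), Gpx4 (2.27-fold), Ftl1 (2.12-fold), Tfrc (2.09-fold) and Fth1 (2.03-fold) came next. Ncoa4 (1.48-fold) and Aifm2 (1.36-fold) varied least, and the 15 neighbouring pairs in the order of their 16 group means all overlapped over libraries. For Acsl4, 4 of the 15 neighbouring pairs were separate, among them the lowest group and the next, C57BL/6J normoxia. For Slc11a2 it was 3, among them DBA/2J normoxia and the next, DBA/2J tunicamycin at 6 h. For Gpx4, the means of the normoxia groups were the highest, but single libraries of C57BL/6J at 6 h (327 CPM in a control, 341 CPM with cyclosporin A) lay above the lowest normoxia library of C57BL/6J (316 CPM).

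**Figure D2:**
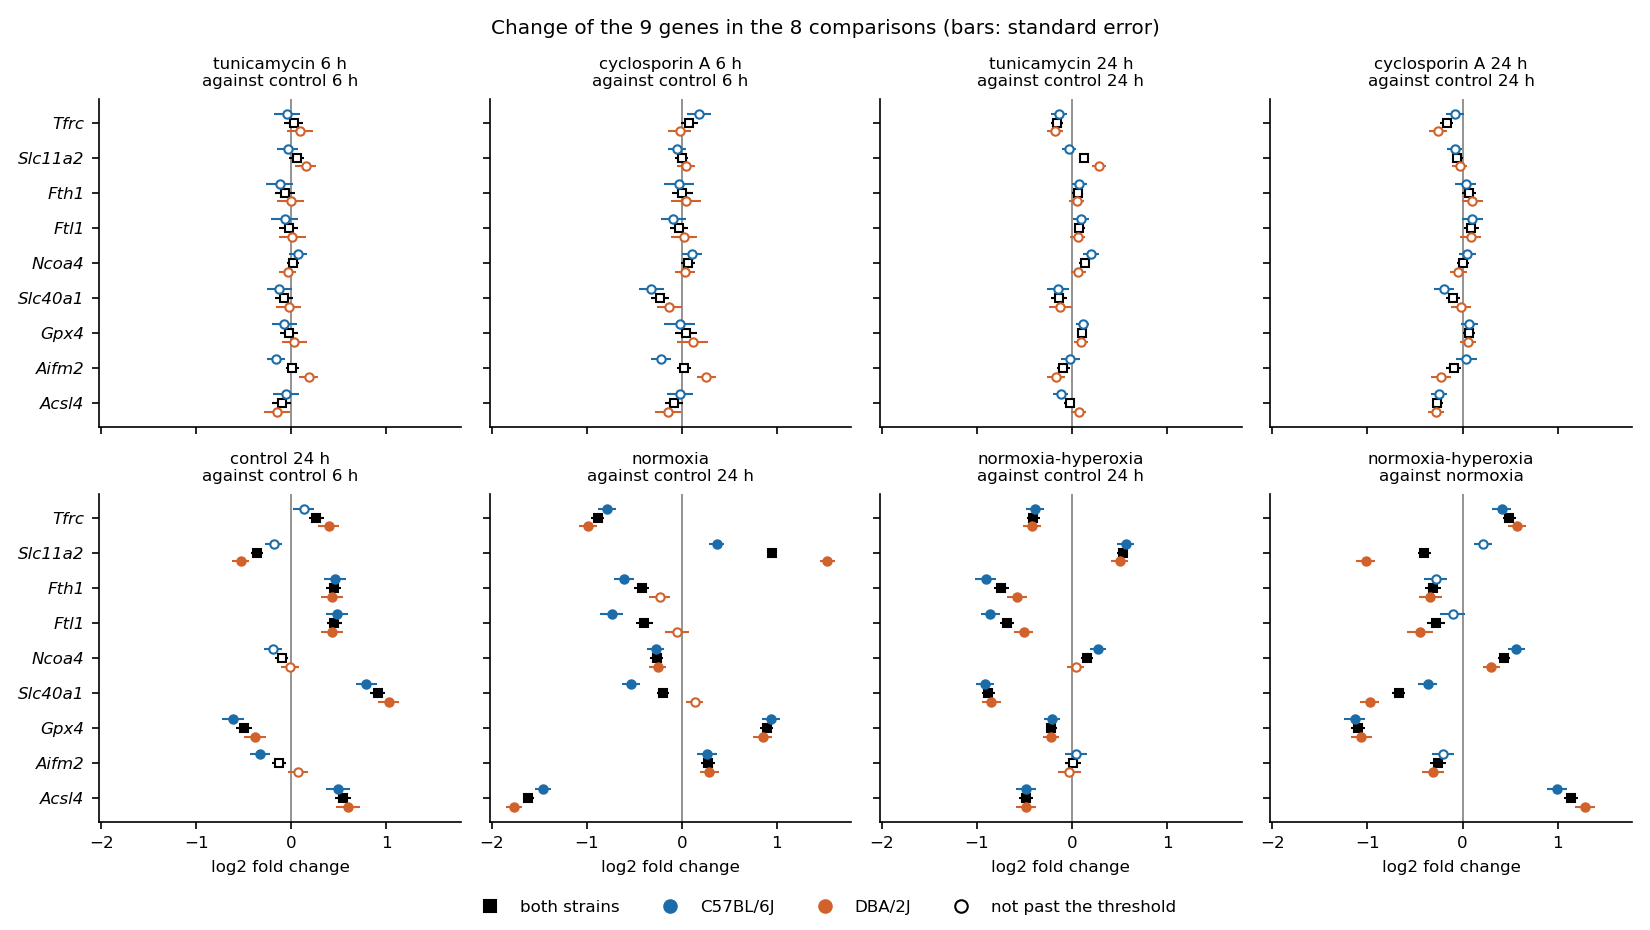
log2 fold change (x axis) with its standard error for each gene (y axis) in each comparison, over both strains (black squares) and in each strain (circles), filled where the adjusted p was under 0.05. The 4 drug panels hold no filled symbol, while under normoxia all 9 squares are filled, from -1.61 for Acsl4 to 0.95 for Slc11a2.

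Time in culture was the first comparison: 24 h against 6 h control slices. Between these times the ferritin chains, ferroportin, the transferrin receptor and Acsl4 rose, and Gpx4 and Slc11a2 fell. With edgeR and a Benjamini-Hochberg adjusted p under 0.05 over both strains, 7 of the 9 genes passed (5 up, 2 down), where 72% of all genes tested did (34.7% higher, 37.4% lower). In 6 of the 9 the libraries did not overlap in either strain and moved the same way, as did 54.1% of all genes. No interaction with strain passed for the 9 genes with edgeR or DESeq2, beside 0.690% and 1.88% of all genes, and 2 of the 9 had an unadjusted p under 0.05, beside 13.2% of all genes (edgeR).

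Ferroportin, the exporter, showed the largest change of the 9. In C57BL/6J, Slc40a1 stood at 38, 42.1 and 34.5 CPM at 6 h and 71.4, 63.6 and 64.6 CPM at 24 h. In DBA/2J the values were 25.6, 30.7 and 33.2 CPM and 55.9, 64.9 and 64.4 CPM. Every 24 h library lay above every 6 h library, and the mean change on the log2 scale was 0.91 ± 0.0773 (SE, edgeR adjusted p = 8.05e-08). Fth1, the ferroxidase chain of ferritin, stood at 3575, 2850.5 and 3044 CPM at 6 h and 4398, 4198 and 4543 CPM at 24 h in C57BL/6J. In DBA/2J it stood at 3161, 3077 and 3546 CPM and 4757, 4110.4 and 4514 CPM. Again no 24 h library was as low as any 6 h library, with a log2 change of 0.44 ± 0.0816 (SE), and the light chain Ftl1 moved by nearly the same amount, 0.45 ± 0.0812. Tfrc rose by less, 0.26 ± 0.0777, and its C57BL/6J libraries overlapped (122, 164 and 145 CPM against 171, 156 and 149.9 CPM).

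The pair of genes that fell were Gpx4 and Slc11a2. Gpx4 stood at 327, 232 and 274 CPM at 6 h and 192, 179 and 179 CPM at 24 h in C57BL/6J, and at 282, 249 and 283 and 209, 196 and 229 CPM for DBA/2J. The groups did not overlap in either strain, and the log2 change was -0.50 ± 0.0815 (SE, edgeR adjusted p = 6.24e-05). Slc11a2 changed by -0.36 ± 0.0644. Acsl4, which works in the opposite sense to Gpx4 in ferroptosis, rose by 0.54 ± 0.0885 with no overlap, from 95.9, 149.5 and 123 to 181, 164 and 177 CPM for C57BL/6J and from 93.2, 96.5 and 103 to 154, 157 and 139 CPM for DBA/2J. Aifm2 (-0.13 ± 0.0746, edgeR adjusted p = 0.122) and Ncoa4 (-0.10 ± 0.0667, adjusted p = 0.183) did not pass, and both values turn positive when libraries are scaled by their totals alone (0.080 and 0.11). In C57BL/6J alone, Aifm2 passed at -0.33 ± 0.106, while its mean TPM went from 10.1 ± 0.531 to 11.4 ± 0.567 (SD, n = 3). Slc11a2 in that strain, at -0.19 ± 0.0913, did not pass, and in mean TPM it went from 22.6 ± 0.388 to 28.2 ± 0.680. The mean TPM of Gpx4 went from 372 ± 60.3 to 346 ± 10.3 in C57BL/6J and from 446 ± 23.2 to 420.4 ± 27.5 in DBA/2J.

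Of the 43 genes tested from a list on iron uptake, storage, export and recycling, 19 were higher and 19 lower, where 34.7% of all genes tested were higher and 37.4% lower. The list on defence against ferroptosis had 11 higher and 12 lower of 29, and the list on lipid peroxidation 9 higher and 14 lower of 28. The lists include the 9 genes and were written with earlier results of these data known. The median log2 change of the 3 lists was 0.037, -0.15 and -0.13, beside -0.019 over all genes. Slc7a11, the cystine carrier that feeds glutathione synthesis, rose most in its list, from 3.52 ± 3.58 to 101 ± 14.8 CPM for C57BL/6J and from 4.86 ± 1.74 to 86.8 ± 19.9 CPM for DBA/2J (SD, n = 3). Thioredoxin reductase 1 (Txnrd1, 1.94 ± 0.14) and the heme oxygenase Hmox1 (1.70 ± 0.219), which releases iron from heme, rose too, as did the siderophore binder Lcn2 (1.97 ± 0.432). Cubn (-3.19 ± 0.191) and Lrp2 (-2.65 ± 0.198), the receptors that reabsorb filtered protein in the proximal tubule, fell most among the iron genes. Coq8a, of ubiquinone synthesis, fell by 2.50 ± 0.143 on the log2 scale.

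All 6 proximal tubule markers, of which Lrp2 is also in the iron list, fell between 6 h and 24 h (median log2 -2.66), with a summed level of 8169 to 20090.1 CPM at 6 h and 1159.6 to 4872 CPM at 24 h. All 6 tested markers of red cells and their precursors fell as well (median log2 -2.42), with 148 to 367 CPM at 6 h and 28.4 to 75.2 CPM at 24 h. Macrophage markers summed to 133 to 174 and 130.1 to 209.8 CPM, while distal convoluted tubule markers summed to 3215 to 4100.1 and 553 to 1440.5 CPM, those of intercalated cells (which share Slc4a1 with the red cell list) to 223 to 362 and 31.2 to 65.4 CPM and those of principal cells to 329 to 495 and 125 to 233 CPM. All 3 thick ascending limb markers and all 3 podocyte markers fell too, with sums of 3425 to 10062 and 722 to 3998 CPM and of 1307 to 2131 and 545 to 1230.0 CPM. Of the macrophage markers, Vsig4 was at 0 in 46 libraries, Marco in 26 and Cd163 in 18. The mitochondrial share of counts was 14.8 to 16.3% at 6 h and 5.96 to 7.87% at 24 h for C57BL/6J, and 8.05 to 8.32% and 3.39 to 3.60% for DBA/2J. The part of these shifts in the changes of the 9 genes was not tested. Scaled by library totals alone, the median of all genes moved by 0.21 (log2), Slc11a2 was -0.15 with an edgeR adjusted p of 0.0536 (range over the alternatives from 7.81e-07 with DESeq2 to 0.0536), Gpx4 -0.29 and Tfrc 0.48.

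Normoxia was set against the same 24 h controls, so this comparison and the one before share 6 libraries. The mitochondrial share of counts also differed between these groups, at 22.8 to 25.6% under normoxia and 5.96 to 7.87% in the controls for C57BL/6J, and at 11.8 to 12.8% and 3.39 to 3.60% for DBA/2J. Its part in the oxygen and strain differences was not tested, but leaving mitochondrial genes out of the fit was among the alternatives. Under normoxia the transferrin receptor and Acsl4 were lower and Gpx4 and Slc11a2 higher than in the 24 h controls, with most of the rise of Slc11a2 in DBA/2J. All 9 genes passed over both strains (edgeR, 3 up, 6 down), where 82% of all genes tested did (42.4% higher, 39.7% lower). In 7 of the 9 the groups were separate in both strains in the same direction on the scale of that fit, against 64.9% of all genes. The seventh, Aifm2, touches in DBA/2J on the CPM scale printed here (16.9, 14.6 and 16.5 CPM in the controls).

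Acsl4 changed most. Normoxia libraries held 59.8, 68.7 and 61.4 CPM for C57BL/6J and 39.1, 44.6 and 41.3 CPM for DBA/2J. Every value was under the lowest 24 h control of its strain by more than 2-fold, and the log2 change was -1.61 ± 0.0575 (SE, edgeR adjusted p = 4.59e-13). Tfrc stood at 104, 90.7 and 81.8 CPM for C57BL/6J and 84.6, 76.8 and 74.1 CPM for DBA/2J, compared with 171, 156 and 149.9 and 181, 155 and 157 CPM in the controls. No library overlapped, and Tfrc fell by 0.88 ± 0.0669 (log2, SE).

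Gpx4 moved the other way. It stood at 369.9, 316 and 368 CPM for C57BL/6J and 409.7, 348 and 324 CPM for DBA/2J under normoxia, above every 24 h control. The log2 change was 0.90 ± 0.069 (SE, edgeR adjusted p = 4.98e-09), with 0.94 ± 0.0977 in C57BL/6J and 0.85 ± 0.0974 in DBA/2J (interaction -0.090 ± 0.137, edgeR adjusted p = 0.706). In mean TPM the rise of Gpx4 was smaller, from 346 ± 10.3 to 420.4 ± 38.8 in C57BL/6J and from 420.4 ± 27.5 to 487 ± 36.6 in DBA/2J (SD, n = 3). Aifm2, the glutathione-independent defence, was higher by 0.28 ± 0.0725, at 18.3, 17.8 and 16.2 CPM for C57BL/6J and 16.9, 19 and 19.5 CPM for DBA/2J. In mean TPM the direction turns in both strains, from 11.4 ± 0.567 to 8.71 ± 0.464 in C57BL/6J and from 13.3 ± 0.761 to 10.5 ± 1.25 in DBA/2J (SD, n = 3). The ferritin receptor Ncoa4 was lower by 0.26 ± 0.0657 on the same scale, at 31, 34.5 and 33.6 CPM for C57BL/6J and 30.7, 31.9 and 36.5 CPM for DBA/2J.

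For 3 of the iron genes the change differed between the strains, by the test of the interaction (edgeR, 17% of all genes called). Slc11a2 in C57BL/6J held 55.6, 57.4 and 52.6 CPM in the controls and 71.4, 65.3 and 76.9 CPM under normoxia. In DBA/2J it held 53.3, 51.6 and 56.2 and 159, 143 and 138 CPM. The rise was 0.37 ± 0.0793 in C57BL/6J and 1.53 ± 0.0798 in DBA/2J, a difference of 1.16 ± 0.112 (SE, edgeR adjusted p = 2e-05). In mean TPM, Slc11a2 in C57BL/6J went the other way, from 28.2 ± 0.680 to 23.1 ± 2.10 (SD, n = 3), and in DBA/2J it rose from 29 ± 0.904 to 53.7 ± 1.49. Ftl1 fell in C57BL/6J, from 2388, 2406 and 2397 to 1661, 1132 and 1507 CPM, by 0.74 ± 0.123 (log2). In DBA/2J, Ftl1 stood at 2795, 2413 and 2806 and 2524, 2368 and 2425 CPM and the groups overlapped (-0.050 ± 0.123, edgeR adjusted p = 0.725). With library totals alone that DBA/2J value was -0.38 and passed (edgeR adjusted p = 0.00812, range over the alternatives 0.00812 to 0.896). The mean TPM of Ftl1 in DBA/2J went from 6826 ± 450.4 to 4245 ± 109.9 (SD, n = 3). The interaction of Ftl1 was 0.69 ± 0.174 (edgeR adjusted p = 0.0146).

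Ferroportin also differed between the strains. Slc40a1 fell in C57BL/6J, from 71.4, 63.6 and 64.6 to 41, 47.5 and 49.4 CPM (-0.53 ± 0.0919). In DBA/2J it stood at 55.9, 64.9 and 64.4 and 59.2, 65.1 and 68.3 CPM (0.14 ± 0.0909, edgeR adjusted p = 0.18). The interaction was 0.67 ± 0.129 (edgeR adjusted p = 0.00297), so the mean over both strains, -0.20 ± 0.0646, is the value of neither strain. For Fth1 the changes were -0.61 ± 0.107 in C57BL/6J and -0.23 ± 0.106 in DBA/2J, and the interaction of 0.38 ± 0.15 missed the threshold (edgeR adjusted p = 0.0988). DESeq2 called the DBA/2J change of Fth1 (-0.28, adjusted p = 0.00755), which edgeR did not (adjusted p = 0.0588). It also called the interaction of Acsl4 (-0.34, adjusted p = 0.0367, beside 19.5% of genes with one), which was -0.31 ± 0.113 with an adjusted p of 0.0751 in edgeR. The interaction call of Ftl1 was lost without replicate 3 of the C57BL/6J 24 h controls (0.58, adjusted p = 0.0735), or without replicate 2 (0.51, 0.0665) or 3 (0.61, 0.06) of the DBA/2J ones, with a range of edgeR adjusted p over all alternatives of 4.6e-05 to 0.0735.

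Of the 43 genes tested from a list on iron uptake, storage, export and recycling, 18 were higher and 21 lower, where 42.4% of all genes tested were higher and 39.7% lower. The list on defence against ferroptosis had 13 higher and 15 lower of 29, and the list on lipid peroxidation 13 higher and 12 lower of 28. Hmox1, at 4021 ± 97.7 CPM for C57BL/6J controls and 3406 ± 427 CPM for DBA/2J controls, stood at 22.2 ± 1.35 and 39 ± 2.01 CPM under normoxia (SD, n = 3), a log2 change of -6.93 ± 0.093. Slc7a11 was at 0.204 ± 0.130 and 0.193 ± 0.0495 CPM under normoxia. Among the genes on lipid peroxidation, the stress factor Atf3 (-7.41 ± 0.139), the prostaglandin synthase Ptgs2 (-7.39 ± 0.199) and the glutathione-degrading enzyme Chac1 (-6.14 ± 0.134) were among the 4 that fell most. Cubn (3.98 ± 0.156), Lrp2 (3.69 ± 0.159), Coq8a (3.17 ± 0.129), the desaturase Scd1 (3.10 ± 0.198) and Fads2 (3.06 ± 0.125) rose. The iron regulatory protein genes, singled out here after their values were seen, were both higher: Aco1 by 1.49 ± 0.067 and Ireb2 by 0.55 ± 0.0533.

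All 6 proximal tubule markers were higher under normoxia (median log2 3.73), at 28432 to 45100.3 CPM in sum against 1159.6 to 4872 CPM in the 24 h controls. Red cell markers were higher too (6 of 6 tested, median log2 2.06), and of 6 macrophage markers tested 4 were higher and 1 lower, with sums of 136 to 211 and 130.1 to 209.8 CPM. Markers of intercalated cells (Slc4a1 among them) were higher as well (3 of 3), at 167 to 441 against 31.2 to 65.4 CPM in sum, as were those of the distal convoluted tubule (3 of 3, 1506 to 3549 against 553 to 1440.5 CPM) and the thick ascending limb (3 of 3). Of 3 principal cell markers 2 were higher. Of 5 endothelial markers 3 were lower and 1 higher, and 2 of 3 podocyte markers were lower. Their part in the changes of the 9 genes was not tested. Scaled by library totals alone, which moved the median of all genes by -0.27, Aifm2 was 0.0063 (edgeR adjusted p = 0.942, range 0.00119 to 0.942) and Slc11a2 in C57BL/6J 0.15 (adjusted p = 0.0787, range 0.000127 to 0.0787). In the same scaling, Slc40a1 in DBA/2J turned to -0.19, and Fth1, Ftl1, Slc40a1 and Ncoa4 over both strains were -0.70, -0.67, -0.47 and -0.54, further from 0 than with TMM.

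Normoxia-hyperoxia was also set against normoxia, by their labels the reperfusion model against the ischemia model, within the oxygen part of the study. Both are labelled 24 h, and the labels do not say when the oxygen was switched. Rises and falls in this comparison are differences between separate groups of libraries. Acsl4, Tfrc and Ncoa4 were higher under normoxia-hyperoxia, and Gpx4, Slc40a1, Fth1, Ftl1 and Aifm2 lower. Slc11a2 was lower in the mean of the strains, which came from DBA/2J. All 9 passed over both strains (edgeR, 3 up, 6 down), beside 73.5% of all genes tested (37% higher, 36.5% lower), and 6 of the 9 were separate in both strains in the same direction, beside 53.6%. These values share the normoxia libraries with those of the comparison before.

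Gpx4 stood at 163, 163 and 149.9 CPM for C57BL/6J and 201, 174 and 171 CPM for DBA/2J under normoxia-hyperoxia, with no overlap with the normoxia libraries. It changed by -1.10 ± 0.0762 (log2, SE, edgeR adjusted p = 3.38e-09). Acsl4 stood at 129, 109 and 138 CPM for C57BL/6J and 93.4, 112 and 117 CPM for DBA/2J, above all normoxia libraries, a change of 1.14 ± 0.0745 (adjusted p = 1.65e-09 with edgeR). Aifm2 was lower by 0.26 ± 0.082, with separate groups in DBA/2J and overlap in C57BL/6J, at 13.7, 14 and 17.2 CPM for C57BL/6J and 14.3, 16.6 and 16.4 CPM for DBA/2J.

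On the side of iron, Tfrc rose to 129, 116 and 120.5 CPM for C57BL/6J and 136, 115 and 118 CPM for DBA/2J, by 0.49 ± 0.0692. Ncoa4 rose to 48.6, 51.1 and 45.6 and 42, 43.7 and 43.5 CPM, by 0.43 ± 0.0607. For both, every normoxia-hyperoxia library exceeded the normoxia libraries of its strain. Fth1 fell to 2429.8, 2178 and 2412 CPM for C57BL/6J and 3255, 2862 and 2874 CPM for DBA/2J, by 0.31 ± 0.0861 on the log2 scale. Ftl1 changed by -0.28 ± 0.095, with overlapping C57BL/6J libraries. Within C57BL/6J neither passed with edgeR (Fth1 -0.28 ± 0.122, edgeR adjusted p = 0.0579, and Ftl1 -0.10 ± 0.134, adjusted p = 0.525). DESeq2 called Fth1 there (-0.28, adjusted p = 0.0121, beside 47.1% of genes with one), and its groups were separate. In mean TPM both went the other way in C57BL/6J, Fth1 from 1703 ± 199 to 1732 ± 172 and Ftl1 from 2207 ± 423 to 2538 ± 263 (SD, n = 3).

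Slc11a2 and Slc40a1 again differed between the strains (edgeR, interaction, 18.2% of all genes called). Slc11a2 stood at 88.3, 77.6 and 79.7 CPM for C57BL/6J, a change of 0.21 ± 0.0953 (edgeR adjusted p = 0.0662). Every one of these libraries lay above every C57BL/6J normoxia library, and the value passed narrowly with the replicate block (0.21, edgeR adjusted p = 0.0497), with library totals (0.22, 0.0499) and without replicate 3 of C57BL/6J normoxia (0.27, 0.0436), in a range of 0.0436 to 0.362. For DBA/2J, Slc11a2 stood at 75.5, 68.2 and 84.2 CPM, lower by 1.02 ± 0.0964 (log2) than under normoxia. The interaction was -1.23 ± 0.135 (SE, edgeR adjusted p = 9.91e-05). Slc40a1 stood at 36.9, 31.8 and 37.4 CPM for C57BL/6J and 31.6, 34.4 and 37.3 CPM for DBA/2J. It fell by 0.37 ± 0.0981 in the former and by 0.98 ± 0.1 in the latter, an interaction of -0.61 ± 0.14 (edgeR adjusted p = 0.00829). With library totals alone the interaction of Slc40a1 was -0.44 (edgeR adjusted p = 0.0677). Over the alternatives its adjusted p ranged from 0.00419 (DESeq2) to 0.0677 (edgeR).

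Of the 43 genes tested from a list on iron uptake, storage, export and recycling, 18 were higher and 18 lower, where 37% of all genes tested were higher and 36.5% lower. The list on defence against ferroptosis had 10 higher and 18 lower of 29, and the list on lipid peroxidation 10 higher and 12 lower of 27. Hmox1 (5.35 ± 0.125), Txnrd1 (3.21 ± 0.117) and the heat shock protein Hspb1 (6.66 ± 0.118) rose, and so did Atf3 (9.40 ± 0.17), Chac1 (5.92 ± 0.27) and Ptgs2 (5.21 ± 0.17). Slc7a11, at under 1 CPM under normoxia, reached 4.35 ± 0.843 CPM for C57BL/6J and 16.7 ± 3.39 CPM for DBA/2J (SD, n = 3). Cubn (-4.68 ± 0.16), Lrp2 (-4.54 ± 0.148), Fads2 (-3.69 ± 0.103), the NADPH oxidase Nox4 (-2.78 ± 0.21) and the glutathione synthetase Gss (-2.09 ± 0.0885) fell. Sepsecs (-1.44 ± 0.0718) and Eefsec (-1.50 ± 0.0884), which serve the synthesis of selenoproteins such as GPX4, fell too. Aco1 (-1.37 ± 0.071) and Ireb2 (-1.01 ± 0.0567) fell.

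All 6 proximal tubule markers fell from normoxia to normoxia-hyperoxia (median log2 -5), to a sum of 560.1 to 2272 CPM, and all 5 endothelial markers rose (median 0.93). Macrophage markers summed to 191 to 414 CPM, with 5 of 6 tested higher. Markers of the distal convoluted tubule, principal cells and podocytes were higher too (3 of 3 each). The mitochondrial share of counts was 22.8 to 25.6% in normoxia and 12.2 to 16.6% under normoxia-hyperoxia for C57BL/6J, and 11.8 to 12.8% and 11 to 17.4% for DBA/2J. Their part in the changes of the 9 genes was not tested. With library totals alone, Ftl1 (-0.19, edgeR adjusted p = 0.0797, range 0.000626 to 0.0797) and Aifm2 (-0.17, 0.0939, range 0.00183 to 0.0939) did not pass.

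Against the 24 h controls, which it shares with the other comparisons at 24 h, normoxia-hyperoxia had lower transcript levels of ferroportin, both ferritin chains, Acsl4, Tfrc and Gpx4, and more of Slc11a2. Over both strains 8 of 9 genes passed (edgeR, 2 up, 6 down), where 68.2% of all genes tested did (34.1% higher, 34.1% lower). In 6 of 9 the libraries were separate in both strains in the same direction, beside 48.6% of all genes. No interaction of the 9 passed with edgeR, beside 1.43% of all genes. At an unadjusted p under 0.05 there were 2, Ftl1 and Fth1, beside 15.4% of all genes. DESeq2 called Ftl1 (0.37, adjusted p = 0.0341; 0.35 ± 0.142 with an adjusted p of 0.251 in edgeR), beside 4.4% of all genes with an adjusted p.

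Slc40a1 changed most, by -0.88 ± 0.0693 (log2, SE, edgeR adjusted p = 3.12e-08), and its highest normoxia-hyperoxia library was below the lowest 24 h control in both strains. Fth1 fell by 0.74 ± 0.0767 and Ftl1 by 0.69 ± 0.0715. Acsl4 (-0.49 ± 0.0729) and Tfrc (-0.41 ± 0.0641) lay between their normoxia and control levels. Gpx4 changed by -0.22 ± 0.0602, and its libraries overlapped in DBA/2J. Slc11a2 rose in both strains, by 0.56 ± 0.087 in C57BL/6J and 0.50 ± 0.0879 in DBA/2J. Aifm2 gave 0.0047 ± 0.0843 (edgeR adjusted p = 0.967). In C57BL/6J the mean TPM of Ncoa4 was 13.9 ± 1.48 in the controls and 13.3 ± 0.447 under normoxia-hyperoxia, against the direction of its call there (0.27 ± 0.0864). Over both strains Ncoa4 passed narrowly at 0.16 ± 0.0616 (edgeR adjusted p = 0.0363). With library totals alone Ncoa4 turned to -0.015, and its edgeR adjusted p ranged over the alternatives from 0.0208 to 0.844. It did not pass without the filter on low counts (0.15, adjusted p = 0.153) and in 8 of the 12 fits that left out 1 library (without C57BL/6J control replicate 1 or 3, DBA/2J control replicate 2 or 3, C57BL/6J normoxia-hyperoxia replicate 1 or 2, or DBA/2J normoxia-hyperoxia replicate 2 or 3), with adjusted p from 0.0607 to 0.147 there.

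Of the 43 genes tested from a list on iron uptake, storage, export and recycling, 17 were higher and 22 lower, where 34.1% of all genes tested were higher and 34.1% lower. The list on defence against ferroptosis had 8 higher and 16 lower of 29, and the list on lipid peroxidation 11 higher and 13 lower of 28. Slc7a11 (-3.47 ± 0.152), Gclm (-2.03 ± 0.0539), the regulatory subunit of the enzyme that starts glutathione synthesis, glutathione reductase (Gsr, -1.44 ± 0.0564) and the ferritin receptor Timd2 (-3.67 ± 0.259) fell. Hspb1 (2.06 ± 0.097), the desaturase Scd1 (1.03 ± 0.135), the ferroxidase Heph (1.26 ± 0.104) and Atf3 (1.97 ± 0.141) rose. Proximal tubule markers fell (6 of 6, median log2 -1.24), red cell markers rose (6 of 6 tested, median 2.53) and 5 of 6 macrophage markers tested rose. Markers of other segments rose as well. In the 24 h controls and under normoxia-hyperoxia, markers of the distal convoluted tubule summed to 553 to 1440.5 and 3913 to 6719 CPM, those of the thick ascending limb to 722 to 3998 and 5639 to 17604 CPM, those of principal cells to 125 to 233 and 449 to 823 CPM and those of intercalated cells to 31.2 to 65.4 and 295 to 700.4 CPM, with 3 of 3 called in each, and 3 of 3 podocyte markers rose. The mitochondrial share of counts was 5.96 to 7.87% in the 24 h controls and 12.2 to 16.6% under normoxia-hyperoxia for C57BL/6J, and 3.39 to 3.60% and 11 to 17.4% for DBA/2J. The part of these shifts in the changes of the 9 genes was not tested. Library totals alone moved the median of all genes by -0.17 and gave -0.39 for Gpx4.

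**Figure D3:**
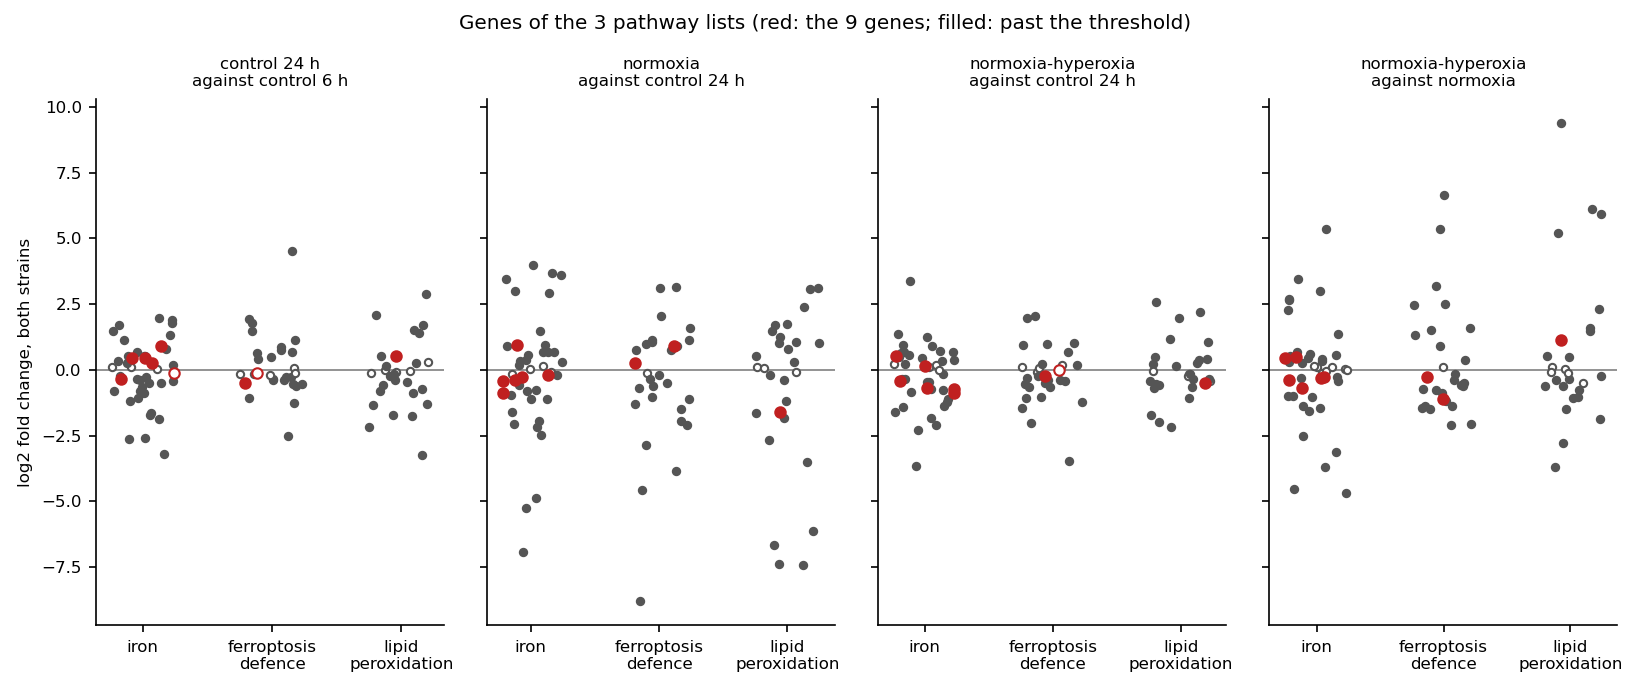
log2 fold change over both strains (y axis) of each gene tested from the 3 lists (x axis) in the 4 comparisons of time and oxygen, with the 9 genes in red and filled points past the adjusted threshold. The 9 genes stay between -1.61 and 1.14, while Atf3 lies at -7.41 for normoxia against the 24 h controls and at 9.40 for normoxia-hyperoxia against normoxia.

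**Figure D4:**
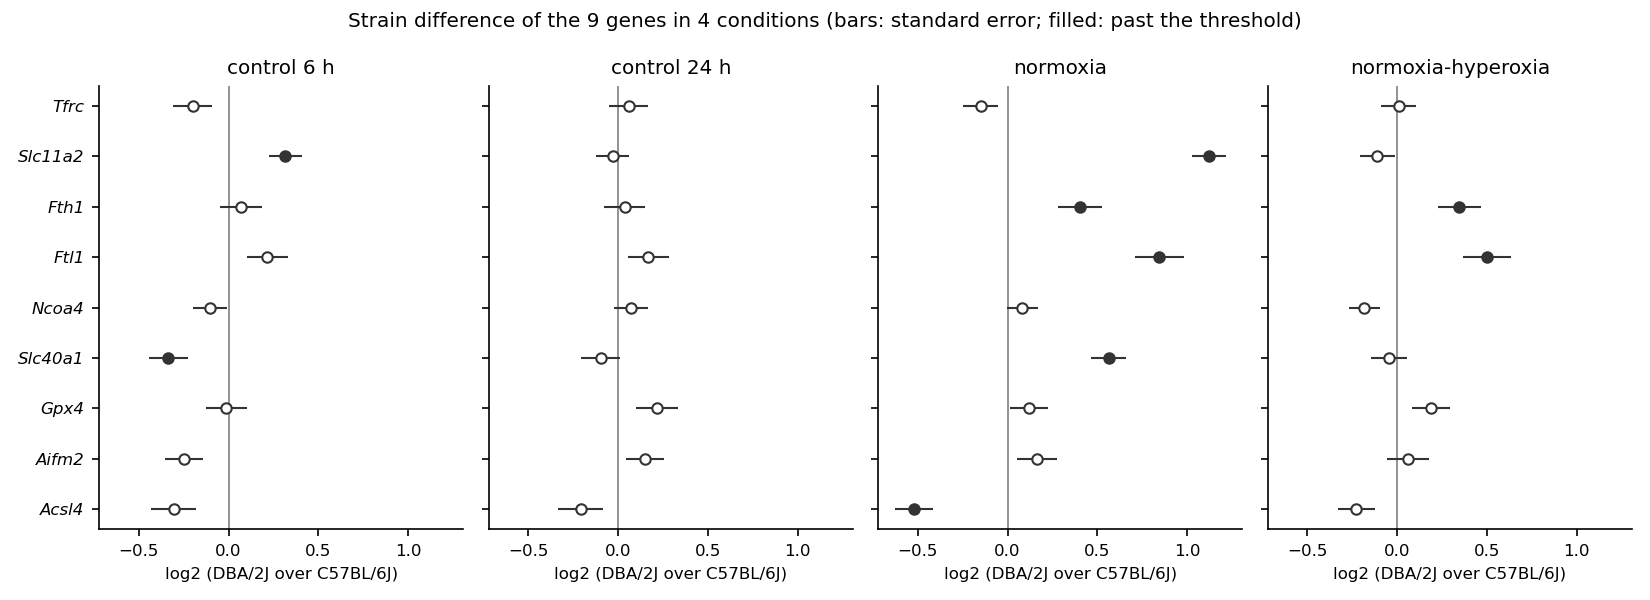
log2 difference of DBA/2J from C57BL/6J (x axis, with its standard error) for each gene (y axis) in 4 conditions, filled where the adjusted p was under 0.05. The filled points number 2 at 6 h, 0 at 24 h, 5 under normoxia and 2 under normoxia-hyperoxia.

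The strains were compared directly in the controls and the oxygen conditions. Under normoxia, DBA/2J had more Slc11a2 (1.12 ± 0.0956), Ftl1 (0.84 ± 0.135), Slc40a1 (0.56 ± 0.0968) and Fth1 (0.40 ± 0.122) and less Acsl4 (-0.52 ± 0.105). These 5 of 9 passed with edgeR, beside 46.8% of all genes tested. Among them Slc11a2 had the smallest adjusted p, 4.61e-07 with edgeR. Under normoxia-hyperoxia, Ftl1 (0.50 ± 0.135) and Fth1 (0.35 ± 0.122) were higher in DBA/2J, 2 of 9 beside 25.7%. Ftl1 stood there at 1281, 1255 and 1439 CPM for C57BL/6J and 2001, 1773 and 1879 CPM for DBA/2J, without overlap.

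Marker sums of cell types also differed between the strains. Under normoxia, 10 of 11 marker lists were lower in DBA/2J without overlap and 1 higher. The lower ones include a list of hepatocyte markers, not a kidney cell type, at 15.6 to 40.4 CPM for C57BL/6J and 2.39 to 4.02 CPM for DBA/2J. They also include the intercalated and red cell lists, which share Slc4a1, so the count is not one of separate kidney cell types. The 1 higher list was the proximal tubule, at 28432 to 34748 CPM for C57BL/6J and 40178 to 45100.3 CPM for DBA/2J. Among the lower ones, the thick ascending limb summed to 8575 to 14920.5 CPM for C57BL/6J and 2052 to 4260.0 CPM for DBA/2J, and intercalated cells to 370.4 to 441 CPM for C57BL/6J and 167 to 229 CPM for DBA/2J. Under normoxia-hyperoxia 2 lists were higher in DBA/2J (proximal tubule and macrophages) and 2 lower (principal cells and hepatocytes). In the 24 h controls 2 were higher (proximal and distal convoluted tubule) and 2 lower. At 6 h 1 was higher (proximal tubule) and 6 lower, hepatocytes among them. The part of these differences in those of the 9 genes was not tested.

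In the 24 h controls none of the 9 passed with edgeR or DESeq2, beside 22.2% and 18.9% of all genes. None had an unadjusted p under 0.05 (edgeR), beside 33.6% of all genes. At 6 h DBA/2J had more Slc11a2 (0.32 ± 0.0908) and less Slc40a1 (-0.34 ± 0.11), 2 of 9 beside 26.2%. Slc11a2 stood there at 81.4, 82 and 65.6 CPM for DBA/2J and 62.4, 62.8 and 61.7 CPM for C57BL/6J, without overlap. Its call was lost without replicate 1 or 2 of the DBA/2J 6 h controls (edgeR adjusted p = 0.0818 and 0.099, range over the alternatives 0.00161 to 0.099). That of Slc40a1 was lost without any 1 of the C57BL/6J 6 h controls, without replicate 1 or 2 of the DBA/2J 6 h controls and without replicate 3 of the C57BL/6J 24 h controls (edgeR adjusted p of up to 0.178). It was also lost with library totals (-0.19, edgeR adjusted p = 0.203), RLE factors, DESeq2 and no filter on low counts (range over the alternatives 0.0297 to 0.203).

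The strain difference of Fth1 under normoxia missed the threshold without replicate 2 of C57BL/6J normoxia (0.31, edgeR adjusted p = 0.0616) or replicate 1 of DBA/2J normoxia (0.35, adjusted p = 0.0528), or without the filter on low counts (0.31, 0.0567). Its adjusted p ranged from 0.0008 (DESeq2) to 0.0616 (edgeR). Under normoxia-hyperoxia the strain difference of Fth1 missed the threshold in 10 of the 12 fits that left out 1 library, all but those without C57BL/6J normoxia replicate 2 or DBA/2J normoxia replicate 1. It also missed it without the filter on low counts (0.31, edgeR adjusted p = 0.0854). Over the alternatives the adjusted p ranged from 0.00508 (DESeq2) to 0.143 (edgeR). GRCm38 is a C57BL/6J genome, and whether reads of DBA/2J mapped less well to these genes was not tested.

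Other genes of the lists differed between the strains too. Alox15, a lipoxygenase that oxidises phospholipids, was at most 0.229 ± 0.148 CPM (SD, n = 3) in any C57BL/6J group and stood in DBA/2J at 31.8 ± 5.69 CPM in 6 h controls, 10.3 ± 2.88 CPM in 24 h controls and 70.5 ± 25.4 CPM under normoxia. Over both strains it was lower under normoxia-hyperoxia than under normoxia, by 1.88 ± 0.778 (log2, SE, edgeR adjusted p = 0.0477). Fads1 was higher in DBA/2J in all 4 conditions (0.76 ± 0.114, 0.82 ± 0.116, 0.92 ± 0.0854 and 0.79 ± 0.088). Nfe2l2, the regulator of the antioxidant response, was lower in DBA/2J in all 4 conditions as well (-0.80 ± 0.122, -0.73 ± 0.122, -0.45 ± 0.0814 and -0.67 ± 0.081), of which the normoxia value is outside the naming rule and was added after it was seen. For normoxia against the 24 h controls, Hmox1 had an interaction of 1.13 ± 0.147 and Gsr one of 0.79 ± 0.106. From normoxia to normoxia-hyperoxia the interaction of Hmox1 was -1.37 ± 0.213, and that of Ireb2 -0.57 ± 0.113.

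With the drugs edgeR called none of the 9 genes. In its fits, 0 of 9 passed over both strains for tunicamycin at 6 h, cyclosporin A at 6 h, tunicamycin at 24 h and cyclosporin A at 24 h, beside 0%, 0%, 1.38% and 0% of all genes. At an unadjusted p under 0.05 the counts were 0, 1, 3 and 2 of 9, beside 1.7%, 4.44%, 12.9% and 6.56% of all genes, and DESeq2 called 0, 0, 0 and 1 of the 9, beside 0%, 0.283%, 3.34% and 0.435% of the genes with an adjusted p (Aifm2 and Ncoa4 had none in the last comparison). The log2 changes over both strains ran from -0.10 to 0.057, -0.22 to 0.080, -0.16 to 0.13 and -0.26 to 0.093, with standard errors of 0.0504 to 0.115. No interaction of the 9 passed in these 4 comparisons with edgeR or DESeq2, where 0% of all genes passed with edgeR and at most 0.00323% with DESeq2. At an unadjusted p under 0.05 there were 1, 1, 1 and 0 of the 9, beside 1.74%, 2.46%, 2% and 1.53% of all genes.

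Over both strains, the gene that DESeq2 called was Acsl4 with cyclosporin A at 24 h. It stood at 151, 148 and 141 CPM for C57BL/6J and 118, 115 and 135 CPM for DBA/2J, below every 24 h control of its strain. The log2 value was -0.26 ± 0.0567 with an edgeR adjusted p of 0.414, and DESeq2 gave -0.27 with an adjusted p of 0.0169 (range over the alternatives 0.0169 to 0.945). Within a strain, DESeq2 also called Slc11a2 with tunicamycin at 24 h in DBA/2J (0.27, adjusted p = 0.0395, beside 1.67% of genes with one), where edgeR gave 0.28 ± 0.0722 with an adjusted p of 0.133. It stood there at 62.4, 64.4 and 68 CPM, above the DBA/2J controls (53.3, 51.6 and 56.2 CPM). Acsl4 was the only 1 of the 9 genes whose libraries were separate in both strains in the same direction with a drug, beside 1.23% of all genes in that comparison. For tunicamycin at 6 h, cyclosporin A at 6 h and tunicamycin at 24 h, none of the 9 was separate in this way, beside 0.169%, 0.556% and 3.14% of all genes. With tunicamycin at 24 h, 2 of 43 iron genes, 1 of 29 defence genes and 3 of 28 lipid peroxidation genes passed, beside 1.38% of all genes, and none passed with the other drug conditions, where no gene of any kind did (edgeR). They were Steap2, a metalloreductase (-0.55 ± 0.0709), the iron and zinc carrier Slc39a14 (0.28 ± 0.0593), Slc3a2, the partner of Slc7a11 (0.29 ± 0.0566), Chac1 (0.62 ± 0.0749), Far1 (0.38 ± 0.08) and Cyb5r1 (0.35 ± 0.0741). Proximal tubule markers did not pass in any drug comparison (edgeR, 0 of 6 in each, with medians from -0.16 to 0.095).

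Over the 16 group means, some of the genes moved together. As a description, with strains and libraries shared between groups, Pearson's r of the mean log2 CPM was 0.95 for Fth1 and Ftl1, and 0.92 for Tfrc and Acsl4. It was 0.75 for Fth1 and Slc40a1 and 0.73 for Gpx4 and Aifm2. Acsl4 ran opposite to Slc11a2 (-0.85) and to Gpx4 (-0.78), and Tfrc opposite to Slc11a2 (-0.83), the pair of genes with an element in the 3′ UTR.

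Genes with a mean log2 CPM of at least 3 were searched for likeness to each of the 9 genes. Pseudogenes, genes without a symbol and names starting with Gm and a number or ending in Rik were passed over. Among the 10050 candidates left, the 3 whose group means were most like each of the 9 genes were as follows, with r over 16 groups. For Tfrc they were Dnm1l (0.97), Kdm7a (0.97), Camk2d (0.96), and for Slc11a2 Fbxo10 (0.96), Helb (0.95), Egln2 (0.91). For Fth1 they were Ddx56 (0.98), Rae1 (0.98), Nop16 (0.98), for Ftl1 Ryk (0.97), Gga1 (0.97), Tfpi2 (0.97) and for Ncoa4 Zfp326 (0.96), Tceal9 (0.95), Got1 (0.95). Slc40a1 had Tardbp (0.97), Anapc1 (0.96), Akap8 (0.96). The defence genes had Mettl7b (0.99), Sod1 (0.99), Slc22a18 (0.99) for Gpx4 and Dhodh (0.92), U2af1l4 (0.89), Nme7 (0.88) for Aifm2, and Acsl4 had Mef2a (0.98), Myl12a (0.98), Tmod3 (0.98). Sod1, near Gpx4, is a cytosolic superoxide dismutase, and Dhodh, nearest to Aifm2, is the mitochondrial dehydrogenase of pyrimidine synthesis that also reduces ubiquinone.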

How the data were processed

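Gene counts of 48 kidney slice libraries were analysed. The authors deposited 1 table of raw counts per Ensembl gene. Per the submitters' processing notes it was made with bcl2fastq 2.20.0, FastQC 0.11.8, STAR 2.7.9a and featureCounts 1.5.1 on GRCm38. The annotation release and the strand setting are not given in the sources used here. Symbols came from GENCODE M21 (55141 of 55487 identifiers). The 9 genes, the gene lists and the tests were chosen with earlier results of these data known.

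Each comparison was fitted with edgeR 4.0.16 (quasi-likelihood test, robust, TMM factors, filterByExpr, Benjamini-Hochberg adjusted p under 0.05 over all genes tested) on the 12 libraries of its 4 groups, with 8 residual degrees of freedom. The contrasts were both strains, each strain and their interaction, and the strain difference in 4 conditions. No adjustment was made across the 36 contrasts. The SE is the log2 fold change divided by the square root of F. Printed CPM use TMM factors over all 48 libraries. Replicates of a group differed by more than sampling noise (chi-square per degree of freedom of at least 5.76 over 48 pairs).

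All 9 genes are named. From each list up to 4 called genes per direction with the largest change, and for strain differences and interactions up to 3 with the smallest p, could be named, at a mean log2 CPM of at least 1. Of these the text gives a part. The 9 alternatives were DESeq2 1.42.0, RLE factors, library totals only, no mitochondrial genes, no filter on low counts, a fit of all 48 libraries, a replicate block, leaving out each library, and added pseudogene counts. Ranges of adjusted p over the alternatives take in DESeq2 beside the edgeR fits.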

Additional observations from a re-analysis of the deposited data

Results flagged for a closer look

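For 3 of the 9 genes the change from the 24 h controls to normoxia differed between the strains by the test of the interaction (edgeR, adjusted over all genes), beside 17% of all genes tested. The DBA/2J change minus the C57BL/6J change was 1.16 on the log2 scale for Slc11a2, 0.69 for Ftl1 and 0.67 for Slc40a1. From normoxia to normoxia-hyperoxia the difference was -1.23 for Slc11a2 and -0.61 for Slc40a1, 2 of the 9 beside 18.2% of all genes. The normoxia libraries enter both comparisons.

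Aifm2 is listed for tunicamycin at 6 h because its value was below 0 in C57BL/6J (-0.16) and above 0 in DBA/2J (0.18), a difference of 0.35 on the log2 scale. Neither value nor the difference passed the threshold (edgeR, adjusted p = 0.999948 for the difference, unadjusted p = 0.0254).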

How the results depend on the processing

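Over 61 results on single genes, 1157 of 1220 values under the alternatives kept their direction and side of the threshold, 44 lost the call, 5 gained it and 14 turned. Scaling by library totals alone turned Aifm2 (0.080) and Ncoa4 (0.11) at 24 h against 6 h, Aifm2 (-0.16) and Ncoa4 (-0.015) for normoxia-hyperoxia against the 24 h controls, and Slc40a1 for normoxia in DBA/2J (-0.19). Aifm2 for normoxia-hyperoxia against the 24 h controls, not called in any of these, was -0.0025 without mitochondrial genes and -0.0031 with the replicate block, and -0.051 to 0.039 when each library was left out.

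Over all contrasts, DESeq2 called 6 gene values that edgeR did not and missed 5 that edgeR called: Slc40a1 between the strains at 6 h, Aifm2 for normoxia in each strain (adjusted p = 0.0518 and 0.0575) and from normoxia to normoxia-hyperoxia in DBA/2J (0.0621), and Gpx4 for normoxia-hyperoxia against the 24 h controls in DBA/2J (0.0559).

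Of 400 counts of the 9 genes called, 377 were within 1.5 times the reported one. DESeq2 called 1 for cyclosporin A at 24 h and 1 for the interaction of normoxia-hyperoxia with strain against the 24 h controls. For the strain difference at 6 h the count was 1 with RLE factors, without the filter and with DESeq2, 4 with all 48 libraries fitted together, and 0 to 4 when each library was left out. The interaction from normoxia to normoxia-hyperoxia had 1 with library totals only. The strain difference under normoxia-hyperoxia had 1 without the filter and 1 to 2 when each library was left out. The cause was not tested.

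In no comparison did all 6 pairs of same-numbered replicates have a correlation of deviations over 0.1 (5 of 6 for tunicamycin at 6 h, fewer elsewhere), and the labels leave the pairing undecided, so the replicate block is only an alternative. With it 59 of 61 gene values kept their call and direction, Slc11a2 from normoxia to normoxia-hyperoxia in C57BL/6J gained its call, and none of the 20 counts of the 9 genes that were compared moved (those within a strain were not among them). Over all genes the block moved the calls from 233 to 314 for tunicamycin at 24 h. For the interactions it moved them from 117 to 71 (24 h against 6 h controls), from 247 to 618 (normoxia-hyperoxia against 24 h controls) and from 3134 to 3921 (against normoxia). Depth limits the precision most in the library of 5619309 counts.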
